A study of Mus musculus with 36 samples.

Results

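The genes by which the liver makes fatty acids and packs them into triglyceride were followed in livers of mice fed a plain or a tomato-supplemented diet. The set holds 34 named genes of 53715 gene identifiers in the count table, listed by pathway role (lipogenesis, desaturation, elongation, NADPH supply, triglyceride assembly and their regulators) and matched by Ensembl identifier to GENCODE mouse symbols. Of these, 31 passed the filter on low counts and were tested with 14068 genes in all, and the other 3 were listed at 0 in every library. One member, Thrsp, a small nuclear protein that promotes lipogenic gene expression, was 2.07-fold higher on tangerine than on red tomato. Against control its log2 estimate was 0.03 on tangerine and -1.02 on red. The call was lost in 7 of 36 fits that left out 1 library. It was also lost with no low-count filter, and with the mouse number or a score of clock genes as covariate. By edgeR no member passed the threshold in either tomato diet against control. On red against control DESeq2 passed 1, limma-voom 8 and a fit with surrogate variables 9 (beside 1.17%, 10.5% and 2.6% of all genes).

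All animals were male C57BL/6 mice aged 10 weeks, which had been assigned to diets at random at 4 weeks of age. The control group ate the purified AIN93G diet, the second group AIN93G with 10% red tomato powder, and the third AIN93G with 10% tangerine tomato powder, so the groups share the base diet. Liver RNA was sequenced as 36 libraries, 12 per diet, from a directional kit. The labels give 11 to 12 mice per group, the number in each library's title was read as a separate mouse, and n counts libraries. Both comparisons with control use the same 12 control libraries, so they are not independent of each other.

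Fatty acid synthesis starts with citrate that leaves the mitochondrion and is cleaved to acetyl-CoA, which is carboxylated to malonyl-CoA and built into palmitate with NADPH as the reductant. Elongases and desaturases then shape the chain, and acyltransferases join the products to glycerol as triglyceride. In liver the pathway is known for its rise after feeding, when insulin acts through SREBP-1c and glucose through ChREBP.

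Libraries held 21290169 to 33810573 counts (median 27002946). All 8 hepatocyte markers were detected in every diet, at a summed 84428 to 125780 counts per 1000000 (CPM, scaled by TMM factors). A pair of libraries stood apart by high marker sums, each with values that touch members: Red 186 held T cell markers at a summed 159 CPM, against at most 4.25 in the other Red libraries. Its 6 adipocyte markers summed to 9.003 CPM, against 2.35 to 5.67 in the other Red libraries, 1.52 to 5.20 in Control and 2.28 to 5.87 in Tangerine, and 5 of them, among them Plin1 at 110 counts and Lep at 42, were at their highest of all libraries. Tangerine 216 held exocrine pancreas markers at a summed 11.6 CPM, against at most 0.330 in any other library. The remaining libraries were not even in such markers. Sinusoidal endothelial markers fell to 44.3 CPM in the lowest Control library (median 139) and to 66.7 in the lowest Tangerine library (median 141). Kupffer cell markers fell to 69.3 CPM in Control (median 173). B cell markers reached 97.0 CPM in Tangerine 242, against at most 47.0 in the other Tangerine libraries. In bulk tissue, fewer cells of a type and less RNA per cell cannot be told apart.

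No level can be given for 3 members. G6pdx, the first enzyme of the oxidative pentose phosphate pathway, Agpat2, an acyltransferase that makes phosphatidic acid, and Lpin2, a phosphatidate phosphatase, were at 0 counts in all 36 libraries. Each lies wholly inside the span of another gene in the GENCODE M21 annotation (GRCm38). G6pdx (chrX:74409483-74429194, minus strand) lies in the span of Ikbkg, which had a median of 1668 counts. Lpin2 (chr17:71182560-71249817, plus strand) lies in that of Gm26561, which had a median of 18234. Agpat2 lies in that of Gm20532, which had a median of only 1.0 count (0 to 4). It also overlaps Egfl7 in part, which had a median of 66.5 counts. Of all 1246 protein-coding genes placed in this way, 99.3% were at 0 in every library, against 22.8% of the 11931 that overlap no other gene. These zeros are therefore reported as entries of the table and not as absence of the transcripts. The same overlap covers part of other members, so their levels may be understated. The share of exon bases outside other spans was 47.8% for Acss2, 70.0% for Pnpla3, 74.1% for Mogat1, 78.0% for Pklr and 88.6% for Mlxipl. Counts were not taken again over those bases. If none came from the overlap, the control mean of Pklr would be 223 instead of 174 CPM per kilobase. That of Acss2 would be 83.8 instead of 40.0.

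Levels of the members spanned more than 4 orders of magnitude per unit length. In the control livers Scd1, the stearoyl-CoA desaturase that makes oleate, led with a mean of 4529 ± 1906 CPM per kilobase of exon (RPKM, SD, n = 12). Thrsp was next at 551 ± 194 RPKM. Elovl5, which elongates polyunsaturated fatty acids, had a mean of 314 ± 78.3 RPKM and Elovl2, which acts after it, 279 ± 63.9 RPKM, which do not differ beyond their spread. Fads2 (229 ± 40.8), Acly (215 ± 106), Fads1 (210 ± 22.8), Dgat2 (200 ± 29.97) and Fasn (193 ± 89.3) did not differ beyond their spread. At the low end stood Scd2, a desaturase isoform, at 1.94 ± 0.581 RPKM and Mogat1, a monoacylglycerol acyltransferase, at 0.235 ± 0.157 RPKM.

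The 31 tested members took 3.62% ± 1.19 of TMM-scaled counts in control livers, 3.15% ± 0.786 on red and 2.79% ± 0.908 on tangerine tomato (mean ± SD, n = 12 each). Scd1 alone made up 2.22% ± 0.932, 2.03% ± 0.624 and 1.503% ± 0.601. Without it the shares were 1.40% ± 0.291, 1.12% ± 0.187 and 1.29% ± 0.326, so the order of the tomato diets turned with this one gene.

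Mice on the same diet differed more in these genes than in most others. The biological coefficient of variation had a median of 35.2% over the 31 tested members and of 15.2% over all 14068 genes, and 25 members lay above the latter. Pnpla5 (80.3%), Pnpla3 (79.7%), Lpin1 (69.7%), Mogat1 (56.9%) and Elovl3 (54.7%) varied most. Dgat1 (9.08%), Agpat3 (9.73%) and Slc25a1 (10.6%) varied least.

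A few mice recurred at the ends of these ranges. Tangerine 226 was the lowest library of its diet for 18 of the 31 members and Red 175 for 15, while Red 186 was the highest of its diet for 14, Control 189 for 12 and Tangerine 160 for 10. Fasn, the multifunctional enzyme that makes palmitate, stood at 479 CPM in Tangerine 226 against 3335 in Tangerine 160. A gene of fatty acid oxidation lay the other way in Tangerine 226. Cpt1a, which admits fatty acids to the mitochondrion, was at 551 CPM there, against 274 to 470 in the other Tangerine libraries. Igfbp1, which insulin represses, was at its lowest of the diet in the same library, at 8.96 CPM against 23.5 to 195. Red 186, with its high lipogenic counts, had the lowest Cpt1a of its diet at 258 CPM and the lowest Pck1, a gluconeogenic enzyme, at 372 CPM. Pdk4, which blocks pyruvate oxidation in fasting, did not follow this order, with its highest Red value, 46.6 CPM, in Red 186. These mice and genes were chosen after their values were seen, and feeding state was not tested.

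**Figure D1:**
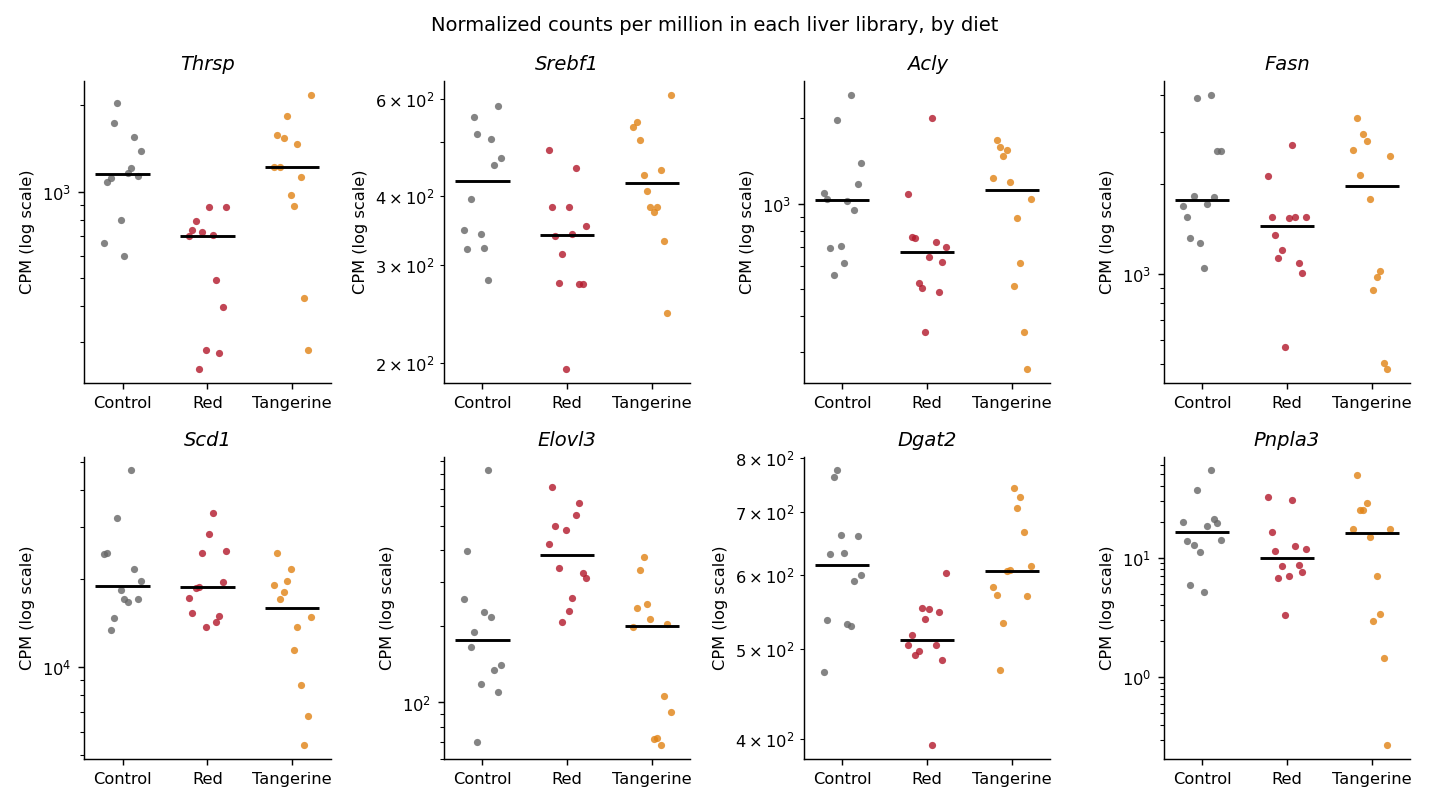
Normalized CPM on a log scale (vertical) in each of 12 libraries per diet (points, horizontal by diet) for 8 members, with the median of each diet as a bar. Every Red library lies below the control median for Thrsp and Dgat2 and above it for Elovl3, while Acly, Fasn, Scd1 and Pnpla3 overlap broadly.

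Tested against control, red tomato gave 0 of 31 members past an adjusted p of 0.05 by edgeR, where 0.149% of all genes tested passed. At an unadjusted p under 0.05 there were 11 members (35.5%), against 13.3% of all genes. Of these members 9 (29%) were lower on red and 2 (6.45%) higher, against 6.63% and 6.67% of all genes. Estimates lay below 0 for 24 members (77.4%) and for 51.5% of all genes, and the median log2 fold change was -0.25 over the members and -0.00 over all genes. The members vary together across mice, so their shared direction does not count as separate observations. DESeq2 passed 1 member here, Thrsp, beside 1.17% of all genes. By limma-voom 8 passed (Acss2, Dgat2, Elovl1, Elovl2, Elovl3, Fads1, Lpin1 and Thrsp), beside 10.5% of all genes. A fit with 5 surrogate variables passed 9 (Acaca, Acly, Acss2, Elovl3, Elovl6, Pgd, Pklr, Slc25a1 and Thrsp), beside 2.6% of all genes. Without Red 186 the edgeR count stayed at 0, beside 54 of 14099 genes. In that fit 15 members had an unadjusted p under 0.05, beside 1886 of all genes, and the median over members was -0.32.

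Tangerine tomato against control also gave 0 of 31 members, beside 0.0142% of all genes, and DESeq2 and limma-voom gave 0 as well. Only 1 member, Scd1, had an unadjusted p under 0.05, on the lower side, a share of 3.23% against 5.47% of all genes in either direction and 3.16% on the lower side. Estimates lay below 0 for 26 members (83.9%, against 55.4% of all genes), with a median of -0.13. Both tomato diets pooled against control gave 0 members, beside 0.00711% of all genes, with 4 at an unadjusted p under 0.05 (12.9%, against 6.77% of all genes), 26 below 0 (against 54.5%) and a median of -0.15, and DESeq2 and limma-voom again gave 0.

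Tangerine against red tomato gave 1 of 31 members, Thrsp, where 1.71% of all genes passed. At an unadjusted p under 0.05 there were 4 members, Thrsp, Dgat2 and Srebf1 higher on tangerine and Elovl3 lower, a share of 12.9% against 15.1% of all genes, with 6.6% of all genes higher and 8.52% lower. Estimates lay below 0 for 10 members (32.3%, against 51.5% of all genes), and the median over members was 0.14. DESeq2 and limma-voom each passed 3 members, Thrsp, Elovl3 and Dgat2, beside 2.78% and 5.2% of all genes. The fit with surrogate variables passed 7, which were these 3 with Acly, Pklr, Slc25a1 and Srebf1, beside 5.82% of all genes.

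**Figure D2:**
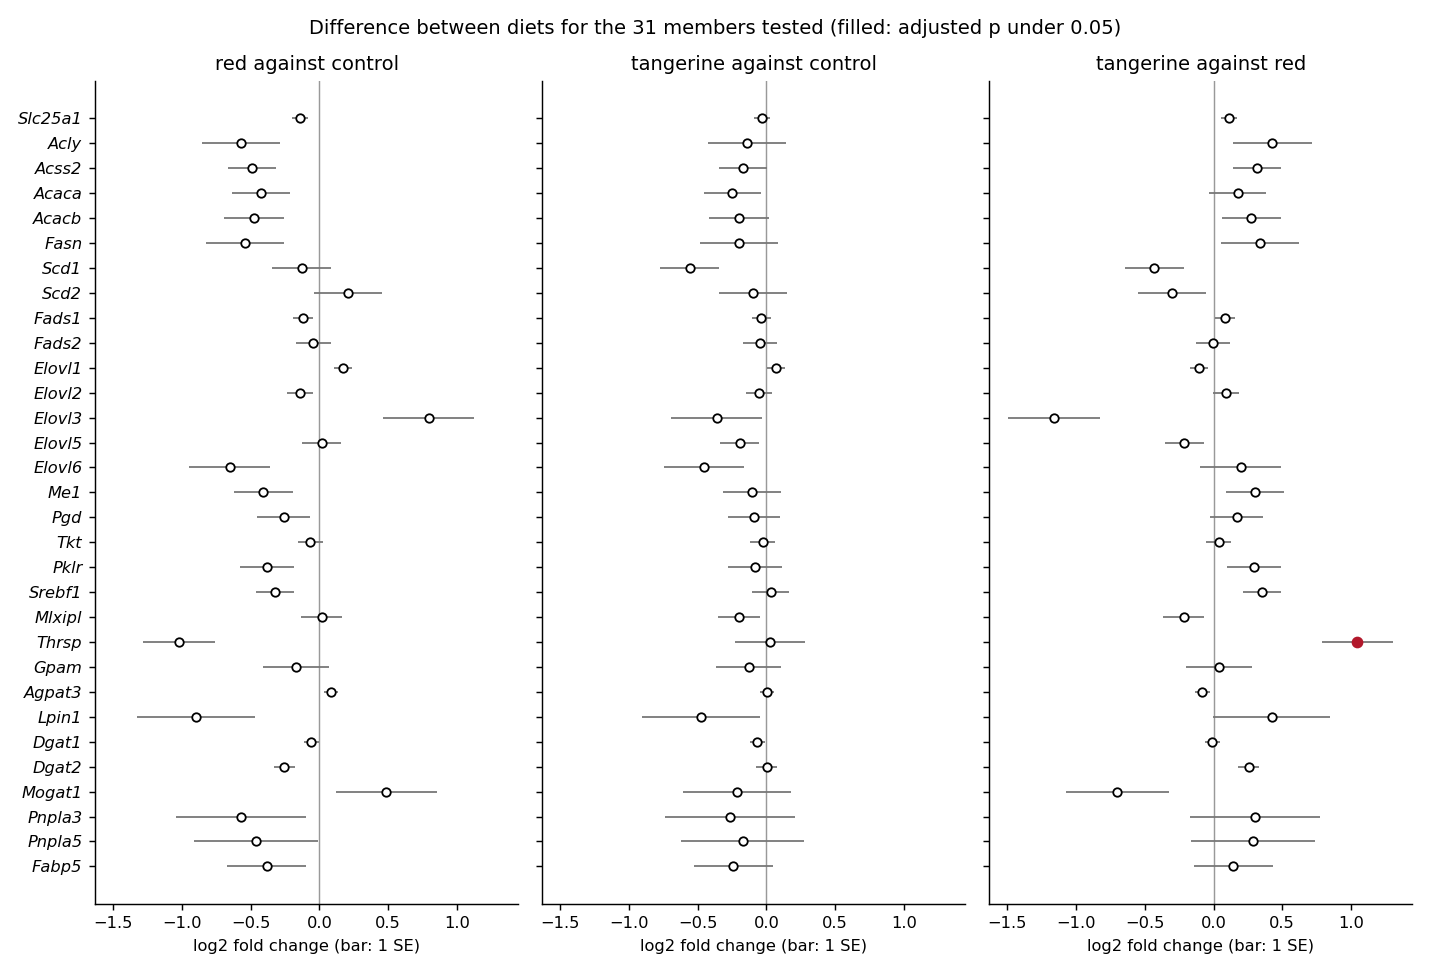
Log2 fold change (horizontal, bar of 1 SE) of each of the 31 members tested (vertical, by role) for red against control, tangerine against control and tangerine against red. The only filled point, past an adjusted p of 0.05, is Thrsp in tangerine against red at 1.05, and Elovl3 lies farthest to the left there at -1.16.

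Among the regulators, Thrsp set red tomato apart. Its CPM ran from 597 through a median of 1150 to 2036 in Control, from 241 through 704 to 887 in Red, and from 282 through 1220 to 2176 in Tangerine. Not one Red library reached the control median, and 10 of 12 Tangerine libraries lay above every Red library, but Tangerine 226 lay among the lowest of all. Thrsp rose on tangerine against red by 1.05 on the log2 scale (SE 0.26, edgeR adjusted p = 0.0287), a 2.07-fold difference with a 95% interval of 1.45 to 2.94. Against control the red estimate was -1.02 (SE 0.26, edgeR adjusted p = 0.0689, DESeq2 0.00855, limma-voom 0.0186) and the tangerine estimate 0.03 (SE 0.26, adjusted p = 0.9999, with an interval of 0.717-fold to 1.44-fold). The call was held in 29 of 36 fits that left out 1 library and was lost without Tangerine 216, 217 or 242 or Red 166, 175, 199 or 202 (adjusted p 0.0501 to 0.0625). With a clock score as covariate the estimate was 0.81 (adjusted p = 0.314), in a fit where 0 of all genes passed. With the mouse number it was 1.07 (0.0551, beside 32 of all genes that passed), and with no low-count filter 1.06 (0.0622, beside 136).

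Srebf1 encodes SREBP-1, whose 1c form carries the insulin signal to lipogenic promoters. It ran from 283 through 426 to 583 CPM in Control, from 195 through 340 to 485 in Red and from 247 through 423 to 610 in Tangerine, and the 3 ranges overlap. The red estimate against control was -0.32 (SE 0.14, adjusted p = 0.299) and that of tangerine against red 0.35 (SE 0.14, adjusted p = 0.197). Mlxipl, which encodes the glucose-responsive factor ChREBP, had medians of 234, 226 and 218 CPM in Control, Red and Tangerine, with no estimate beyond 0.22 in either direction.

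Sequences are shown for Srebf1, Fasn and Thrsp, whose transcripts varied together over the mice (r = 0.75 of Fasn with each). Other members followed Fasn more closely, such as Acaca (0.93), and are not shown. RefSeq (GRCm38.p6) gives windows for 27 of the 34 members, 38 windows in all. Each was searched over the 250 bases before the start, on both strands. The motifs were the E-box (CACGTG), the D-box (TTANGTAA), the CCAAT box (CCAAT), the GC box (GGGCGG), the TATA box (TATAAA) and a sterol element (TCACNCCAC). Capitals mark every match. The Fasn window is chr11:120824548-120824797 and that of the innermost of 3 Srebf1 starts chr11:60210472-60210721, both read on the minus strand.
Fasn: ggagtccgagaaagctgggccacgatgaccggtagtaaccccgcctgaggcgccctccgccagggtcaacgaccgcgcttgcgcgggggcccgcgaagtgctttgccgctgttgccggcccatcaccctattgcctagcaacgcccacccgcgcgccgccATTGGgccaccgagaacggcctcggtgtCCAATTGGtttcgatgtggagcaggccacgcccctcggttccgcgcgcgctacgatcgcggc
Srebf1: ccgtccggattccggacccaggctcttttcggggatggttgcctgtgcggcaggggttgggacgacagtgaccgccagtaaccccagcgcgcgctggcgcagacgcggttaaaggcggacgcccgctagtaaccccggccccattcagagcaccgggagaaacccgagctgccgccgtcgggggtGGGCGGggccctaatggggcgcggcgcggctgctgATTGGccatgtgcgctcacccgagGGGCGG

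The Fasn window held 3 CCAAT matches, at bases -90 to -86, -62 to -58 and -59 to -55 before the start, the last 2 overlapping on opposite strands. The Srebf1 window held 1, at -30 to -26, and 2 GC boxes, at -65 to -60 and -6 to -1. CCAAT was found in 17 of 38 member windows (44.7%) and in 33.8% of all windows, and the GC box in 20 (52.6%) and 32.7%. The E-box was in 5 member windows (Elovl5, Lpin2, Mlxipl, Pnpla5 and Slc25a1; 13.2%, against 6.02%), the TATA box in 2 (5.26%, against 12.4%) and the sterol element in 1, that of Mlxipl (2.63%, against 1.05%). The D-box was in none, against 2.06% of all 32851 windows.

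For Thrsp, much of the RefSeq window lies in the first exon of a GENCODE transcript, so only 30 bases around each of its 2 CCAAT matches are shown, at chr7:97417612-97417641 and chr7:97417585-97417614 (minus strand). No other motif of the list matched this window.
Thrsp upstream match: ccaaacgctgggATTGGctcaaaacagggc
Thrsp downstream match: ggctgtgttgctCCAATggttgggctttgg

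The genes that supply acetyl-CoA and malonyl-CoA and build palmitate all had estimates below 0 on red against control, and none passed by edgeR, while Acss2 passed by limma-voom and 4 of the 6 (Acaca, Acly, Acss2 and Slc25a1) with surrogate variables. Acly, which cleaves citrate, ran from 560 through 1029 to 2416 CPM in Control, from 353 through 675 to 2008 in Red and from 260 through 1114 to 1672 in Tangerine. Its top Red value was Red 186, and the next was 1079 CPM. The red estimate against control was -0.57 (SE 0.29, adjusted p = 0.387), and without Red 186 it was -0.80 (adjusted p = 0.163). Acss2, which makes acetyl-CoA from acetate, ran from 263 through 370 to 668 CPM in Control, from 161 through 273 to 519 in Red and from 131 through 395 to 491 in Tangerine. Only 1 Red library, again Red 186, lay above the control median. Its estimate was -0.49 (SE 0.18, adjusted p = 0.205) with Red 186 and -0.60 (adjusted p = 0.101) without. The part of the other cell types in Red 186 in these values was not tested.

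Acaca, the acetyl-CoA carboxylase of the cytosol, gave -0.43 (SE 0.21) and Acacb, its mitochondrial-surface isoform, -0.47 (SE 0.22) on red against control. Fasn ran from 1049 through 1768 to 3995 CPM in Control, from 571 through 1450 to 2715 in Red and from 479 through 1970 to 3335 in Tangerine. Its red estimate was -0.54 (SE 0.28, adjusted p = 0.416). The Tangerine mice held both low and high livers for Fasn. The low livers were mice 215, 216, 217, 225 and 226, at 479 to 1027 CPM. The others (128 to 198, and 242) lay at 1785 to 3335 CPM. The low livers lie close in mouse number, and whether that number marks a batch was not tested. Slc25a1, the mitochondrial citrate carrier, was far more even, with medians of 264, 240 and 254 CPM. Only 1 Red library lay above its control median, at an estimate of -0.14 (SE 0.06, adjusted p = 0.285). On tangerine against control these 6 genes had estimates from -0.25 to -0.03, and on tangerine against red from 0.11 to 0.43.

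The medians of the 4 tested genes of NADPH supply and glycolytic input were lowest in Red and highest in Tangerine, but their means were highest in Control and their tangerine estimates against control lay from -0.10 to -0.03. None passed by edgeR, and with surrogate variables Pgd and Pklr passed on red against control and Pklr on tangerine against red. Me1, the cytosolic malic enzyme that yields NADPH, had medians of 258, 188 and 300 CPM in Control, Red and Tangerine, and a red estimate against control of -0.41 (SE 0.21, adjusted p = 0.408). Pklr, the liver pyruvate kinase and a ChREBP target, had medians of 517, 394 and 626 CPM, and 5 of 12 Tangerine libraries lay above the highest Red library. Its red estimate was -0.38 (SE 0.20, adjusted p = 0.402). Pgd, the other NADPH-yielding step of the pentose phosphate pathway, gave -0.26 (SE 0.19) and Tkt, a transketolase of its later steps, -0.07 (SE 0.09).

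Of the desaturases, Scd1 stood lowest on tangerine. It ran from 13300 through 18919 to 46760 CPM in Control, from 13632 through 18653 to 33437 in Red and from 5397 through 15924 to 24434 in Tangerine. Among the Tangerine libraries 4 (215, 217, 225 and 226) lay below every control library, and the others lay within the control range. The estimate against control was -0.56 (SE 0.21, adjusted p = 0.732) for tangerine and -0.13 (SE 0.21, adjusted p = 0.840) for red. Scd2 had medians of 9.87, 9.72 and 9.83 CPM, and Red 186 reached 36.8 against at most 13.4 in the other Red libraries. The sign of its red estimate was not stable, at 0.21 with all libraries, -0.09 without that library, -0.18 with the clock score as covariate, -0.13 with surrogate variables and -0.00 by limma-voom. Fads1 and Fads2, the delta-5 and delta-6 desaturases of polyunsaturated fatty acids, had no estimate beyond 0.12 in either direction in the 3 pairwise comparisons.

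The elongases did not move as one. Elovl3, which elongates saturated and monounsaturated chains, ran from 69.6 through 177 to 828 CPM in Control, from 207 through 382 to 710 in Red and from 67.8 through 202 to 376 in Tangerine. The control median was exceeded by each of the 12 Red livers, and no Tangerine liver reached the Red median. Tangerine against red gave -1.16 (SE 0.33, adjusted p = 0.0657) and red against control 0.80 (SE 0.33, adjusted p = 0.290). The former passed with DESeq2 (adjusted p = 0.0260), with limma-voom (0.00658), and without Control 188, Tangerine 192 or Tangerine 195 (0.0278 to 0.0424). With the clock score as covariate it was -0.20 (adjusted p = 0.778). The red estimate against control passed with limma-voom (adjusted p = 0.0176) and with surrogate variables (0.0379), and was 0.16 (adjusted p = 0.839) with the clock score.

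Elovl6, which elongates palmitate to stearate, followed Fasn. It ran from 193 through 348 to 891 CPM in Control, from 136 through 222 to 810 in Red and from 96.5 through 372 to 488 in Tangerine. Red 186 was the top Red library and the next stood at 303 CPM. The red estimate against control was -0.65 (SE 0.29, adjusted p = 0.336), and without that library -0.93 (adjusted p = 0.110). Elovl1, an elongase of very long chains, was narrow in all diets, with medians of 37.8, 44.1 and 36.7 CPM, and 8 of 12 Red libraries lay above every control library. Its red estimate was 0.17 (SE 0.07, adjusted p = 0.235). Elovl2 and Elovl5 gave -0.14 (SE 0.10) and 0.02 (SE 0.14) on red against control.

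In triglyceride assembly, Dgat2, which adds the last acyl chain, was the gene with the smallest p. It ran from 473 through 615 to 776 CPM in Control, from 394 through 511 to 603 in Red and from 474 through 606 to 743 in Tangerine. No Red library reached the control median, and 7 Tangerine libraries lay above every Red one. Tangerine against red gave 0.26 (SE 0.08, adjusted p = 0.0722) and red against control -0.25 (SE 0.08, adjusted p = 0.122). The former passed with DESeq2 (adjusted p = 0.0318) and limma-voom (0.0284) and was 0.05 (adjusted p = 0.826) with the clock score as covariate. The latter passed with limma-voom (adjusted p = 0.0308) and was -0.09 (adjusted p = 0.663) with the clock score. Dgat1, the other enzyme of this step, differed little, with medians of 18.6, 17.97 and 17.5 CPM and estimates from -0.07 to -0.01.

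Lpin1, a phosphatidate phosphatase that also acts as a coactivator, had a wide range. It ran from 157 through 608 to 1109 CPM in Control, from 67.6 through 204 to 918 in Red and from 71.9 through 416 to 850 in Tangerine. Among Red libraries 5 lay below every control library, yet Red 177 lay near the top of the control range. The red estimate was -0.90 (SE 0.43, adjusted p = 0.362), and -1.31 by limma-voom (adjusted p = 0.0441). Gpam, the mitochondrial acyltransferase that begins the pathway, gave -0.17 (SE 0.24) and Agpat3, a later acyltransferase, 0.08 (SE 0.05). Mogat1 gave 0.49 (SE 0.37), at medians of 0.310, 0.474 and 0.267 CPM, not far above the 0.0887 to 0.141 CPM to which 3 counts correspond in these libraries.

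Pnpla3, a lipid droplet protein whose variants are linked to fatty liver in people, and Pnpla5, a related lipase, had the highest biological coefficients of variation of the tested members. Pnpla3 ran from 5.12 through 16.3 to 53.7 CPM in Control, from 3.30 through 10.0 to 32.2 in Red and from 0.270 through 16.1 to 49.3 in Tangerine. In Tangerine 226, the lowest library, Pnpla5 was at 0 counts, against a Tangerine median of 7.39 CPM. The red estimates against control were -0.57 (SE 0.47) for Pnpla3 and -0.46 (SE 0.45) for Pnpla5. Fabp5, a fatty acid binding protein, had medians of 70.4, 60.2 and 60.1 CPM and a red estimate of -0.38 (SE 0.29).

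Across mice within a diet, most of the lipogenic members moved together. Correlations were taken over 36 libraries on log2 CPM centred on the diet mean, with p-values from 100000 permutations within diets, adjusted over 17 relations, of which 13 were listed ahead of this computation and 4 added later. Fasn with Acly gave r = 0.92 (rho = 0.93, permutation p = 1e-05, the smallest the permutations can give, adjusted p = 2.8e-05) and 0.89 without the 2 libraries farthest from the median. It was 0.89, 0.92 and 0.95 within Control, Red and Tangerine. Fasn with Elovl6 gave r = 0.92 (rho = 0.91, permutation p = 1e-05, adjusted p = 2.8e-05), and 0.89 without the farthest 2. Fasn with Thrsp gave r = 0.75 (rho = 0.67, permutation p = 1e-05, adjusted p = 2.8e-05), and 0.60 without the farthest 2.

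The regulators tracked their known targets to different degrees. Srebf1 with Fasn gave r = 0.75 (rho = 0.75, permutation p = 1e-05, adjusted p = 2.8e-05), with 0.69, 0.82 and 0.81 within the diets and 0.66 without the farthest 2. Srebf1 with Pnpla3 gave r = 0.66 (rho = 0.62, permutation p = 1e-05, adjusted p = 2.8e-05), and 0.53 without the farthest 2. Srebf1 with Scd1 gave r = 0.38 (rho = 0.32, permutation p = 0.027, adjusted p = 0.042), and did not pass without the farthest 2 libraries (r = 0.24, adjusted p = 0.25). Within the diets it was 0.21, 0.18 and 0.65. Mlxipl with Pklr gave r = 0.42 (rho = 0.38, permutation p = 0.01, adjusted p = 0.019), and also did not pass without the farthest 2 (r = 0.34, adjusted p = 0.092). Within the diets this relation was 0.70, 0.49 and 0.08.

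Gpam with Dgat2 was negative at r = -0.48 (rho = -0.45, permutation p = 0.0055, adjusted p = 0.012), and -0.34 without the farthest 2 (adjusted p = 0.14). This relation did not pass without those libraries. Leaving out extreme libraries narrows the range, so it cannot tell whether a relation rests on them. Within the diets r was -0.36, -0.73 and -0.50, and the Red value was -0.25 without Red 186. Insig1 with Fads1 (r = 0.17, rho = 0.14, permutation p = 0.29, adjusted p = 0.33) and Srebf2 with Fads2 (r = 0.17, rho = 0.10, permutation p = 0.31, adjusted p = 0.33) did not pass.

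**Figure D3:**
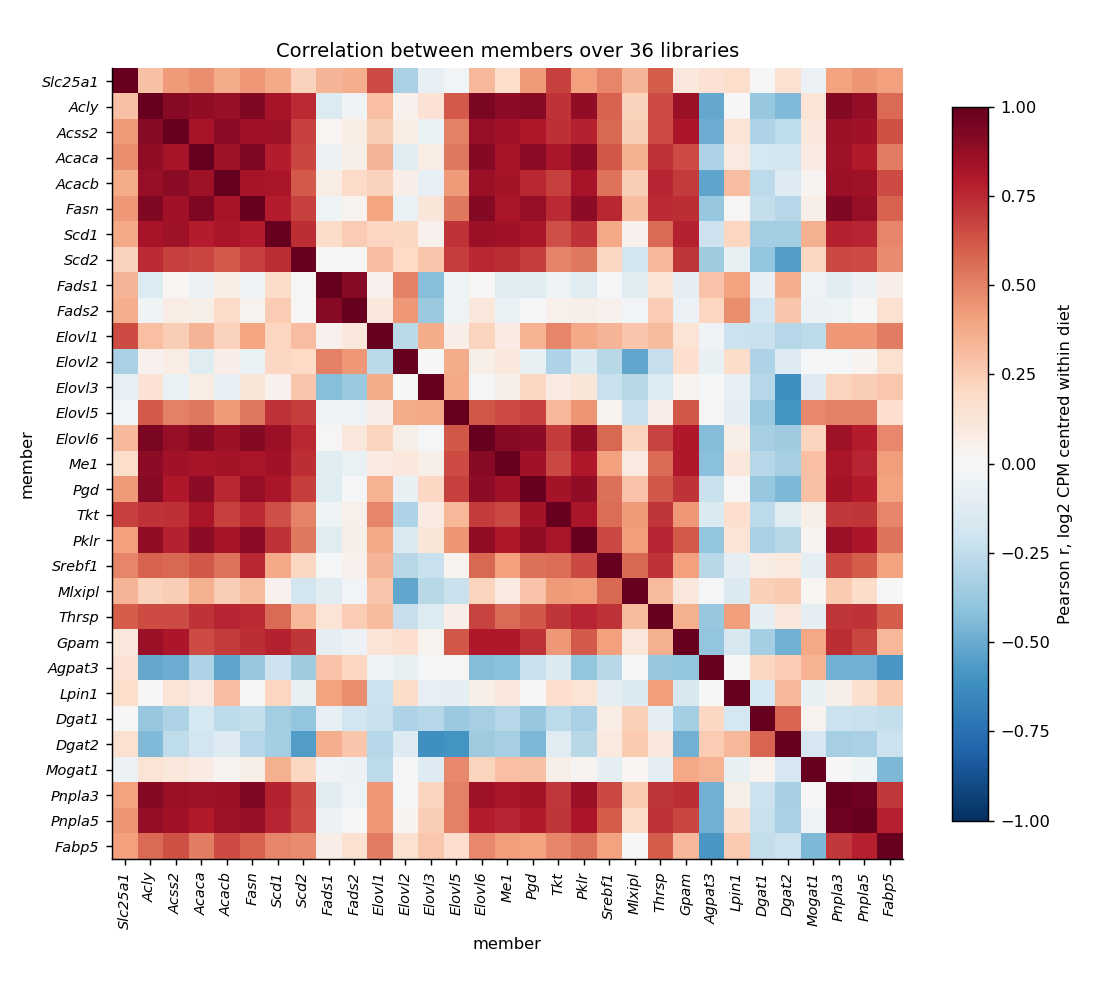
Pearson correlation (colour, from -1 in blue to 1 in red) between each pair of the 31 tested members (both axes, by role) over 36 libraries, on log2 CPM centred within diet. Acly to Fasn, Elovl6, Me1, Pgd, Pklr, Pnpla3 and Pnpla5 form a red block, while Fads1 with Fads2, Dgat1 with Dgat2, Agpat3 and Elovl3 lie outside it.

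Over all 465 pairs of tested members, given here as a description, the median r was 0.26, 157 pairs lay above 0.5 and 7 below -0.5. The closest pair was Pnpla3 with Pnpla5 (r = 0.97), which lie on chromosome 15 on opposite strands. Fads1 and Fads2 also formed a pair (0.91), and had r = -0.05 and 0.04 with Fasn. Dgat2 was nearest Dgat1 (0.58) and farthest from Elovl3 (-0.61). The points share library, depth and the recurring mice named above.

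Some members correlated more with the expression of circadian clock genes than with the lipogenic block. The clock score is the first principal component of 14 clock genes (80.3% of their variance) and is high where Dbp, a clock output, is high. It averaged 0.80 ± 3.03 in Control, -2.56 ± 2.36 in Red and 1.76 ± 2.29 in Tangerine (SD, n = 12). Elovl3 gave r = -0.76 with it (rho = -0.73, permutation p = 1e-05, adjusted p = 2.8e-05), and -0.79, -0.64 and -0.82 within the diets. Dgat2 gave r = 0.64 (rho = 0.66, permutation p = 5e-05, adjusted p = 0.00012), and 0.67, 0.46 and 0.77 within the diets. Without the farthest 2 libraries these were -0.71 and 0.61.

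For Lpin1 the relation to the clock score was r = 0.37 (rho = 0.45, permutation p = 0.024, adjusted p = 0.041) but 0.08, 0.82 and 0.23 within the diets, and the difference between diets was not tested. Thrsp gave r = 0.24 (rho = 0.29, permutation p = 0.15, adjusted p = 0.19), Fasn -0.24 (rho = -0.29, permutation p = 0.16, adjusted p = 0.2) and Srebf1 0.11 (rho = 0.06, permutation p = 0.56, adjusted p = 0.56). Within Control, Red and Tangerine, Thrsp gave 0.23, 0.59 and -0.01, Fasn -0.11, -0.06 and -0.47, and Srebf1 0.44, 0.02 and -0.25. These differences between diets were not tested either. The relations with Elovl3, Dgat2, Lpin1 and Thrsp were added after the data were seen. The labels used here give no time of day or feeding state at collection. The score itself differs between diets, so fits with it as covariate cannot tell clock phase from diet. The part of clock phase in the diet differences was not tested.

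**Figure D4:**
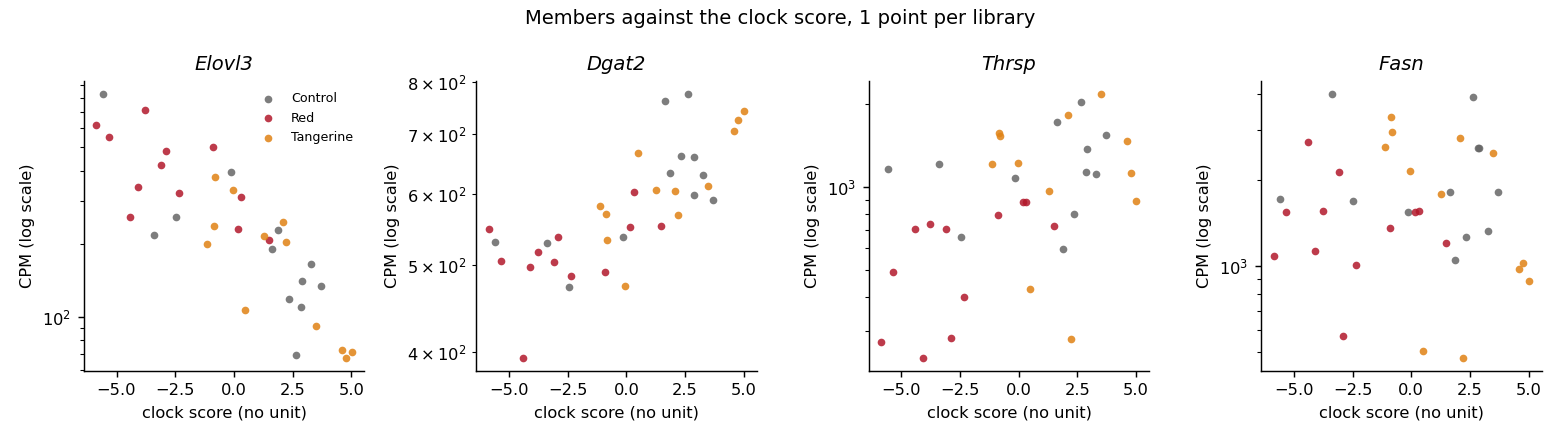
CPM on a log scale (vertical) against the clock score (horizontal, no unit) for Elovl3, Dgat2, Thrsp and Fasn, 1 point per library coloured by diet. Elovl3 declines and Dgat2 climbs along the score in every diet, Red libraries lie mostly at its low end, and Fasn shows no such slope over the 36 libraries.

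Among other genes of the pathway, listed beside the members, none outside the clock list passed in any of the 4 comparisons by edgeR. On red against control 2 of 18 tested regulators of lipogenesis, 6 of 15 glycolytic genes, 4 of 7 other NADPH genes, 2 of 17 other genes of elongation, desaturation and activation, 0 of 11 other genes of triglyceride assembly, 1 of 17 lipid droplet genes and 3 of 10 genes of the fasting and feeding response had an unadjusted p under 0.05, where 13.3% of all genes did. The 6 glycolytic genes were all lower on red. H6pd, which makes NADPH in the endoplasmic reticulum, was at 358 ± 39.4 CPM in Control, 427 ± 34.3 in Red and 401 ± 50.7 in Tangerine (SD, n = 12), with a log2 estimate of 0.25 (SE 0.06, adjusted p = 0.0686) on red.

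Mid1ip1, the paralog and partner of Thrsp, had the same order of diets, at 39.9 ± 9.80 CPM in Control, 30.4 ± 9.88 in Red and 41.2 ± 10.2 in Tangerine. Its tangerine estimate against red was 0.44 (SE 0.16, adjusted p = 0.165). Plin2, a coat protein of lipid droplets, had the opposite order at 356 ± 74.4, 460 ± 92.8 and 340 ± 91.6 CPM, with -0.43 (SE 0.12, adjusted p = 0.0576) on tangerine against red. Acsl1, which activates fatty acids with CoA, gave -0.35 (SE 0.11, adjusted p = 0.0944) and Insig2, which holds SREBPs back in the endoplasmic reticulum, -0.58 (SE 0.20, adjusted p = 0.138) in that comparison. Scd3, a desaturase related to Scd1, had means of 104 ± 46.0, 96.8 ± 25.2 and 71.7 ± 31.9 CPM, with -0.54 (SE 0.22, adjusted p = 0.811) on tangerine against control. Of 14 clock genes 7 passed on tangerine against red, among them Dbp at 1.84 (SE 0.46, adjusted p = 0.0289), and these were listed because earlier results had shown them.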

How the data were processed

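Liver RNA-seq counts per gene, deposited by the authors as one table of whole-number counts for 36 libraries, were used as deposited. FastQC, Trimmomatic, edgeR and the build GRCm38.p6 are named in the submitters' processing notes, and the aligner, counter, annotation and strand setting are not given in the sources used here. Symbols came from GENCODE M21 by Ensembl identifier (53620 of 53715 matched). The members, lists and tests were chosen with earlier results of these data known. Genes were filtered by filterByExpr (minimum count 10), scaled by TMM and tested by edgeR 4.0.16 quasi-likelihood F tests in R 4.3.3 over all 36 libraries, with Benjamini-Hochberg adjustment over 14068 genes and a threshold of 0.05. The fit was tested on simulated data. Intervals are 95%. All members were described by role, and other pathway genes were named from the 3 of smallest p in each list or those past the threshold. Promoter sequences came from RefSeq. Some listed genes and 1 of the 13 relations are counted but not reported here. Labels identify separate mice only by number, so p-values measure the spread between these libraries. No 2 libraries agreed within sampling noise (smallest chi-square per degree of freedom 13.7). Alternatives were DESeq2 1.42.0, limma-voom (limma 3.58.1), sva 3.50.0, other filters, covariates and libraries left out.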

Additional observations from a re-analysis of the deposited data

How the results depend on the processing

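The number of members past the threshold depended on the test and covariates. For red against control it was 0 (beside 21 of all 14068 genes), and 9 with surrogate variables (beside 366), 1 with the DESeq2 test (164), 8 with limma-voom (1482) and 0 to 1 with single libraries left out (1 without Control 120 or Tangerine 226). For tangerine against red it was 1 (beside 241). It was 0 with no low-count filter (beside 136 of 27335), with the mouse number (32) and with the clock score, where 0 of all genes passed. Without Tangerine 216 it was 0 (89), as it was without Red 186 and Tangerine 216 (86). With surrogate variables it was 7 (819). The count was 3 with only the diets compared (333 of 13749), with the DESeq2 test (391) and with limma-voom (732). With single libraries left out it was 0 to 3. Tangerine against control and both diets against control gave 0 in each setting run. The cause of these differences was not tested. Relations past the threshold numbered 9 of the 13 listed, and 5 without the 2 farthest libraries. For members at an unadjusted p under 0.05, 150 of 176 calls or non-calls stayed as they were, 4 calls were lost and 22 gained, and with single libraries left out 706 of 720 stayed. None of these changed direction, whereas Scd2, which was not among them, did so in red against control without Red 186 (-0.09), with the clock score (-0.18), with surrogate variables (-0.13) and by limma-voom (-0.00). No paired analysis was possible because no mouse number occurs in more than 1 diet. Members near 3 counts, such as Mogat1, are limited by depth.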
